A study of Gallus gallus with 2 samples.

Results

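IMPDH2 and ADSL encode enzymes of purine nucleotide synthesis, and every splicing event listed under either name was followed in chicken DT40 cells with and without the splicing factor SRSF10. The table listed 9 events under these 2 genes, 2 under IMPDH2 and 7 under ADSL, out of 10313 events under 5409 gene names. The names are the authors' labels, and whether each event lies in the gene named was not determined. An exon of IMPDH2 or ADSL below is one listed under that name. The genes were chosen because exons listed under them differed in inclusion between the libraries compared here, so their values are given as a description, and their calls in the test over the whole table support nothing. DT40 is a transformed B-cell line from the chicken bursa, the organ in which birds form their B cells. There was 1 library of cells of wild-type genotype and 1 of SRSF10-deficient cells, labelled SRSF10-/-, with no agent or other allele named for either. The labels do not say how many deficient clones were grown, so a difference between genotypes and a difference between these cultures or library preparations cannot be told apart.

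Purine nucleotides are built stepwise on a ribose phosphate until inosine monophosphate (IMP) is formed, and the pathway then splits towards adenine and guanine nucleotides. IMPDH2 is an IMP dehydrogenase, which carries out the first and rate-limiting step from IMP to guanine nucleotides, and is the isoform that proliferating lymphocytes rely on. ADSL is adenylosuccinate lyase, which acts both in the making of IMP and in the last step from IMP to adenosine monophosphate. SRSF10 is a member of the SR family, RNA-binding proteins that influence which exons are kept in the mature RNA.

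For each event the table gave the reads that support inclusion and the reads that support exclusion. The inclusion level is the share of inclusion reads among both, in percent, and differences are in percentage points, deficient minus wild type. Intervals are 95% Clopper-Pearson intervals, which cover counting error only. Summed over all events, the wild-type library had 2047625 reads and the deficient library 2022343, a ratio of 0.988. As 0 rows were listed for SRSF10, no check of the genotype label against the targeted gene was possible. Of 16 genes fixed as B-lymphocyte markers, 11 had events, with 8806 and 9789 reads, among them CD79B, a subunit of the B-cell receptor. T-lymphocyte markers had events in 2 of 8 genes (80 and 108 reads), myeloid markers in 2 of 5 (457 and 561 reads) and fibroblast markers in 0 of 4. These are reads over splicing events and not expression levels.

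A cassette exon is kept or skipped as a whole. The widest difference with reads enough in both libraries lay in a 72 nt cassette exon listed under IMPDH2 (galGal4, chromosome 12, 11622485 to 11622556). In the wild-type library 467 of 789 reads supported inclusion, a level of 59.2% (55.7 to 62.6). In the SRSF10-deficient library 103 of 589 reads did, a level of 17.5% (14.5 to 20.8). The intervals, which cover counting error only, did not overlap, and the difference was -41.7 points. Inclusion reads in the deficient library were 0.221 times those in the wild-type library, while exclusion reads were 1.51 times as many. Per exclusion read there were 1.45 inclusion reads in the wild-type and 0.212 in the deficient library, a 6.84-fold lower ratio. That fold does not depend on how many junctions can support inclusion. The levels do, and with inclusion reads halved they were 42.0% and 9.58%. Inclusion reads were thus the majority in the wild-type library only when each is counted once, and exclusion reads were the majority in the deficient library on both scales. The reads of the event as a whole were 0.747 times as many in the deficient library, against a ratio of 0.988 over all events. That total counts each inclusion read once, so like the levels it depends on how many junctions can support inclusion. It is not an expression level.

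**Figure D1:**
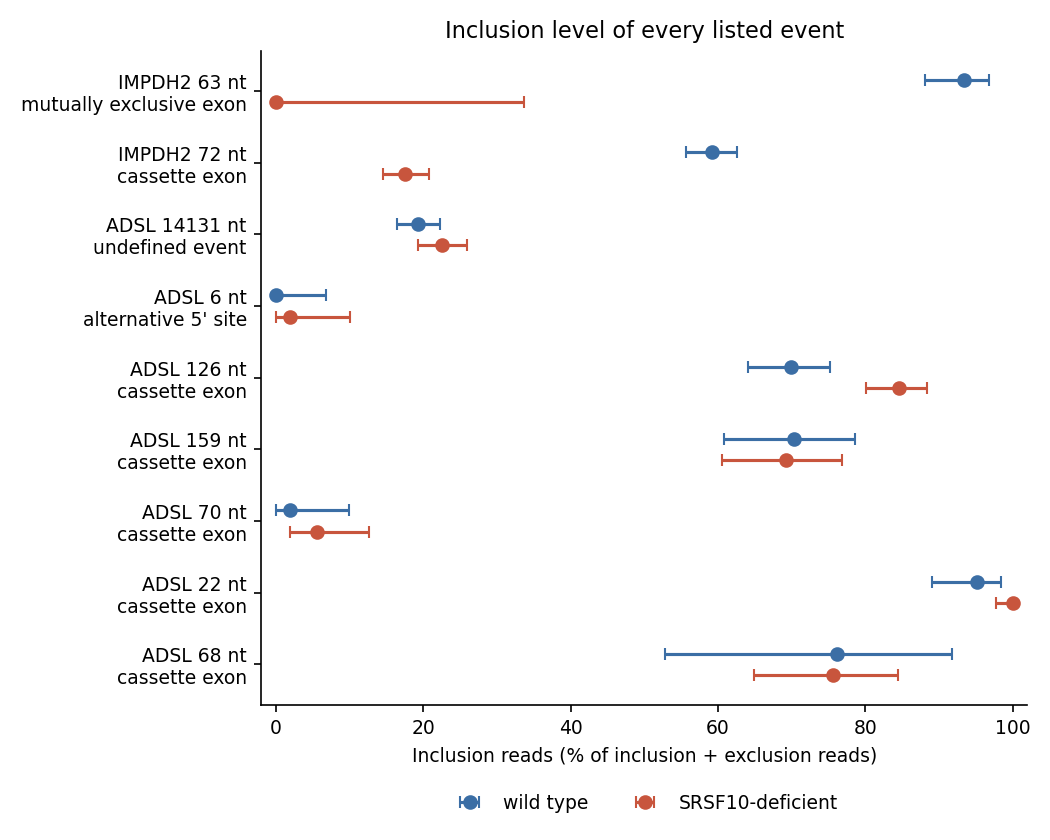
Inclusion level in percent (x axis) of each of the 9 events listed under IMPDH2 and ADSL (y axis), for the wild-type (blue) and SRSF10-deficient (red) library, with 1 library per genotype and 95% Clopper-Pearson intervals as bars. Intervals do not overlap for the IMPDH2 events and for the 126 nt exon of ADSL, and overlap for the other 6 ADSL events. They cover counting error only, and the 63 nt IMPDH2 event has 9 reads in the deficient library.

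The 72 nt length of this exon is a multiple of 3 and would correspond to 24 codons. Its place relative to the coding sequence was not determined, since no galGal4 annotation was used here. In length it was unremarkable, with 27.8% of the 2175 tested cassette exons as short or shorter. In depth it stood high, as 156 tested cassette exons had at least 589 reads in both libraries. The median size of the difference among those 156 was 0.633 points, and the IMPDH2 exon had the widest difference of them. Among all tested cassette exons it ranked as number 4 by size among those with lower inclusion in the deficient library. IMPDH2 was chosen by its difference, so these ranks are description and support nothing. The median is not a like yardstick either. All tested cassette exons had median levels of 88.6% (wild type) and 90% (deficient), nearer to an end of the scale than this exon.

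The other IMPDH2 event was a 63 nt exon listed as mutually exclusive, meaning that it is used in place of another exon (chromosome 12, 11615109 to 11615171). It lay 7313 nt away from the 72 nt exon. In the wild-type library 141 of 151 reads supported inclusion, a level of 93.4% (88.2 to 96.8). The deficient library had 9 reads in all, of which 0 supported inclusion, and so few reads allow a level of up to 33.3%. Exclusion reads were nearly equal, at 10 and 9, so the libraries differed almost wholly in the inclusion reads, 141 and 0. With fewer than 20 reads in the deficient library, the event was not tested in the comparison over all events. Among tested mutually exclusive rows with large enough expected counts, the median chi-square between the libraries was 13.7 times that under counting error alone. That factor takes in noise and any true differences alike. The intervals do not cover that excess. Of 243 mutually exclusive events, 84 had a partner row with the same reads mirrored. Partners were sought only among mutually exclusive rows under the same gene name. IMPDH2 had 1 such row, so a partner could not be found this way. The exon that would replace the 63 nt exon was not determined. The 63 nt length is also a multiple of 3, equal to 21 codons.

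**Figure D2:**
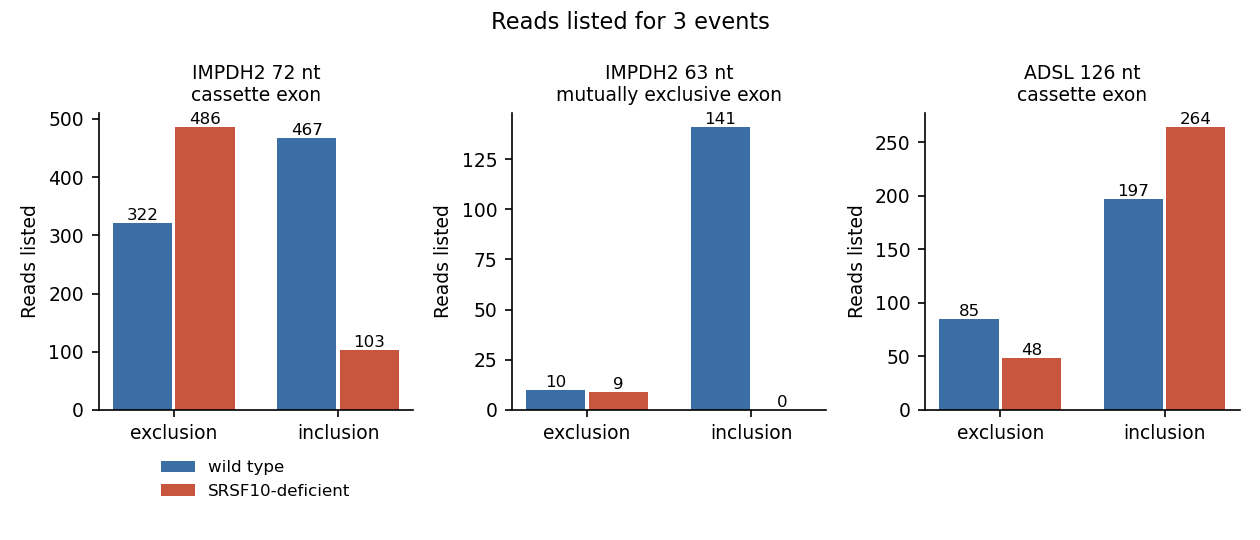
Reads listed (y axis, linear, with a separate range in each panel) for exclusion and inclusion of the 72 nt and 63 nt exons of IMPDH2 and of the 126 nt exon listed under ADSL, in the wild-type (blue) and SRSF10-deficient (red) library, with the read number above each bar. IMPDH2 inclusion reads are 467 and 103 for the 72 nt exon and 141 and 0 for the 63 nt exon, while those of the ADSL exon are 197 and 264.

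Among the events listed under ADSL, a 126 nt cassette exon (chromosome 1, 49992388 to 49992513) differed in the opposite direction. Inclusion was supported by 197 of 282 reads in the wild-type library, a level of 69.9% (64.1 to 75.2). In the deficient library it was supported by 264 of 312 reads, a level of 84.6% (80.1 to 88.4). The difference was 14.8 points, and the intervals did not overlap. Among tested cassette exons with large enough expected counts, the median chi-square was 3.97 times that under counting error alone. The intervals do not cover that excess. Exclusion reads in the deficient library were 0.565 times and inclusion reads 1.34 times those in the wild-type library. Inclusion reads per exclusion read were 2.32 and 5.50, a 2.37-fold higher ratio in the deficient library. Inclusion was above exclusion in both libraries, also with inclusion reads halved (53.7% and 73.3%). The exon is 42 codons long if read in frame. Of 363 tested cassette exons with at least 282 reads in both libraries, 14 had a difference as wide or wider, this exon included, against a median size of 0.915 points. By size it was number 121 among tested cassette exons with higher inclusion in the deficient library. These ranks too are description, since ADSL was chosen by its difference. The authors' deposited table lists an adjusted p-value of 0.133 for the 126 nt exon and of 0.00724 for the 72 nt exon of IMPDH2. The test behind them is not named in the sources used here. Both compare the same 2 libraries by which the genes were chosen, so nothing is read from them.

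The other cassette exons listed under ADSL had overlapping intervals in the 2 libraries, which does not show that their levels were equal. A 159 nt exon (50007396 to 50007554), 53 codons in length and 14.9 kb further along the chromosome, had 78 of 111 reads for inclusion in the wild-type library, or 70.3% (60.9 to 78.6). It had 92 of 133 in the deficient library, or 69.2% (60.6 to 76.9). Its wild-type level was therefore close to that of the 126 nt exon, and the difference was -1.10 points. A 68 nt exon (50066543 to 50066610) had 16 of 21 reads, or 76.2% (52.8 to 91.8), and 62 of 82 reads, or 75.6% (64.9 to 84.4). Its reads were 3.90 times as many in the deficient library, with both kinds of read raised to a like degree, from 5 to 20 for exclusion and from 16 to 62 for inclusion. The wild-type interval of this exon is so wide that a difference as large as that of the 126 nt exon was not detectable at this depth.

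A pair of exons lay at the ends of the scale. A 70 nt exon (50016401 to 50016470) was skipped in nearly all reads, with 1 of 54 reads for inclusion in the wild-type library, or 1.85% (0.0469 to 9.89), and 5 of 89 in the deficient library, or 5.62% (1.85 to 12.6). A 22 nt exon (50017751 to 50017772), short enough to count as a microexon, was included in nearly all reads. It had 98 of 103 reads for inclusion, or 95.1% (89.0 to 98.4), in the wild-type library and 161 of 161 in the deficient library (97.7 to 100). The difference of the 22 nt exon was 4.85 points, and its intervals overlapped only from 97.7 to 98.4. Neither length is a multiple of 3, and nor is 68 nt. Of the 6 cassette exons listed under both names, 3 had a length divisible by 3, against 56.9% of all 3211 listed cassette exons.

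The remaining ADSL events were of other types. An alternative 5' splice site with sites 6 nt apart (49990261 to 49990267) had 0 of 53 reads for inclusion in wild-type cells (a limit of 5.66%) and 1 of 53, or 1.89% (0.0478 to 10.1), in deficient cells. The table does not state which of the competing sites counts as inclusion. An event of no defined type (49964031 to 49978162) had the most reads of the ADSL events, with 144 of 749 for inclusion, or 19.2% (16.5 to 22.2), and 147 of 654, or 22.5% (19.3 to 25.9). Its difference was 3.25 points.

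The ADSL events spread over 102580 nt of chromosome 1, and the span of rows was smaller for 97.7% of the 2421 gene names with several rows. The median span was 6804 nt, and the IMPDH2 rows spanned 7448 nt. In the GRCg7b assembly, consulted solely for gene names and gene order, the protein-coding genes next to ADSL are SLC25A17, MKL1 and SGSM3 on one side and TNRC6B on the other. MKL1 is a coactivator of serum response factor, SGSM3 a regulator of small GTPases and TNRC6B a partner of Argonaute proteins. These 4 names had 0 rows in the table, and 0 rows of other names lay within the ADSL span. Whether each event listed under ADSL lies in ADSL itself or in a neighbour was not determined, so the name is the authors' label for these rows. The same holds for IMPDH2, whose coding neighbours in GRCg7b include QARS, QRICH1 and NDUFAF3. Within the span of the IMPDH2 rows lay 0 rows of other names. Reads per event in the deficient library ranged from 0.873 to 3.90 times those in the wild-type library over the 7 ADSL events.

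**Figure D3:**
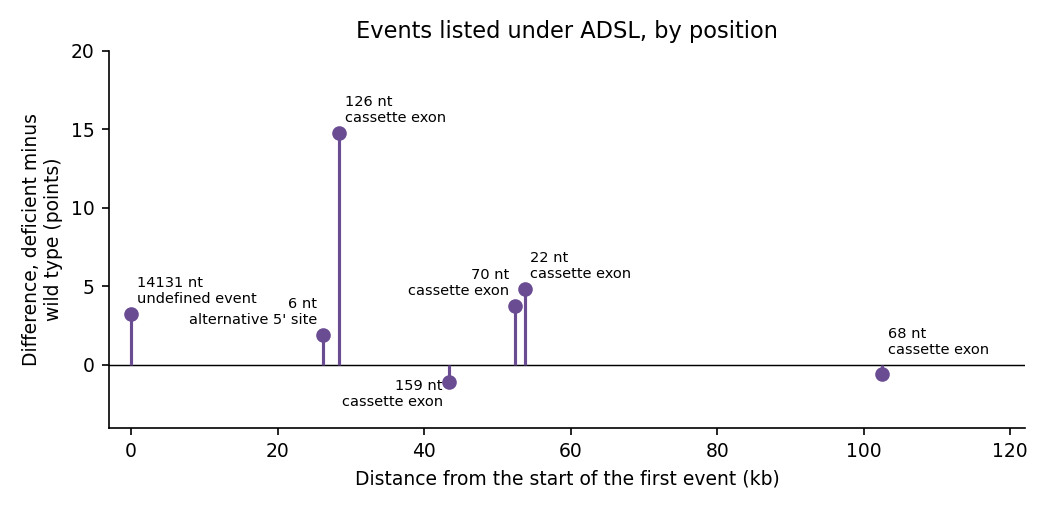
Difference in inclusion in percentage points, deficient minus wild type (y axis), of the 7 events listed under ADSL, at the distance in kb of each event's start from the start of the first event (x axis), with 1 library per genotype. The 126 nt exon stands at 14.8 points, and the other 6 events lie between -1.10 and 4.85 points.

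Over the whole table, Fisher's exact test was applied to the 6089 events that had 20 or more reads in both libraries, and the p-values were adjusted over all of them (Benjamini-Hochberg). An event was called changed when its adjusted p was below 0.05 and its difference 10 points or more. By that rule 286 events (4.7%) were called, 151 higher (2.48%) and 135 lower (2.22%) in the deficient library. Of the 9 events listed under IMPDH2 and ADSL, 8 had enough reads and 2 met the rule. These were the 72 nt exon listed under IMPDH2 and the 126 nt exon listed under ADSL. With 20 points required, with the authors' adjusted p, or with chi-squares divided by their median excess over counting noise, the ADSL exon was not called. The IMPDH2 exon was called in each case. Since the genes were chosen by these differences, nothing is read from that count or from these calls. Among cassette exons, 132 of 2175 (6.07%) were called, 63 of them lower (2.9%) and 69 higher (3.17%). The intervals of the libraries did not overlap in 8.78% of tested cassette exons, and in 2 of the 6 of IMPDH2 and ADSL. Both called exons belong to the cassette exons of 46 to 200 nt with a length divisible by 3, of which 64 of 955 (6.7%) were called, 28 of them lower (2.93%).

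The exons of other genes whose levels lay closest to those of the members were sought among tested cassette exons with at least 100 reads in both libraries, by distance in the plane of the wild-type and deficient levels. These are likenesses over 2 libraries and say nothing of shared control. For the 72 nt exon of IMPDH2, compared with 968 exons, a 48 nt exon of ARHGAP17, a GTPase-activating protein, was nearest at 1.24 points, with 60.4% (54.3 to 66.2) and 17.1% (10.8 to 25.2). The next were a 45 nt exon of NF2, which encodes the tumour suppressor merlin, at 17.6 points (42.3% and 22.6%), and a 51 nt exon of TMEM156 at 18.8 points (46.6% and 31.4%). The intervals of NF2 and TMEM156 did not reach those of IMPDH2 in the wild-type library.

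For the 126 nt exon of ADSL, compared with 966 exons, the neighbours were close. A 163 nt exon of SLC25A16, a mitochondrial carrier, lay at 1.52 points (71.3% and 85%). A 30 nt exon of PPP3CB, a catalytic subunit of the phosphatase calcineurin, lay at 2.44 points (70.3% and 87.0%), and a 160 nt exon of NFIC, a transcription factor, at 2.77 points (72.0% and 82.8%). The interval of each of these 3 exons overlapped that of the ADSL exon in both libraries. Lengths were multiples of 3 for the 3 exons nearest to IMPDH2 and for 1 of the 3 nearest to ADSL, against 56.9% of all listed cassette exons.

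**Figure D4:**
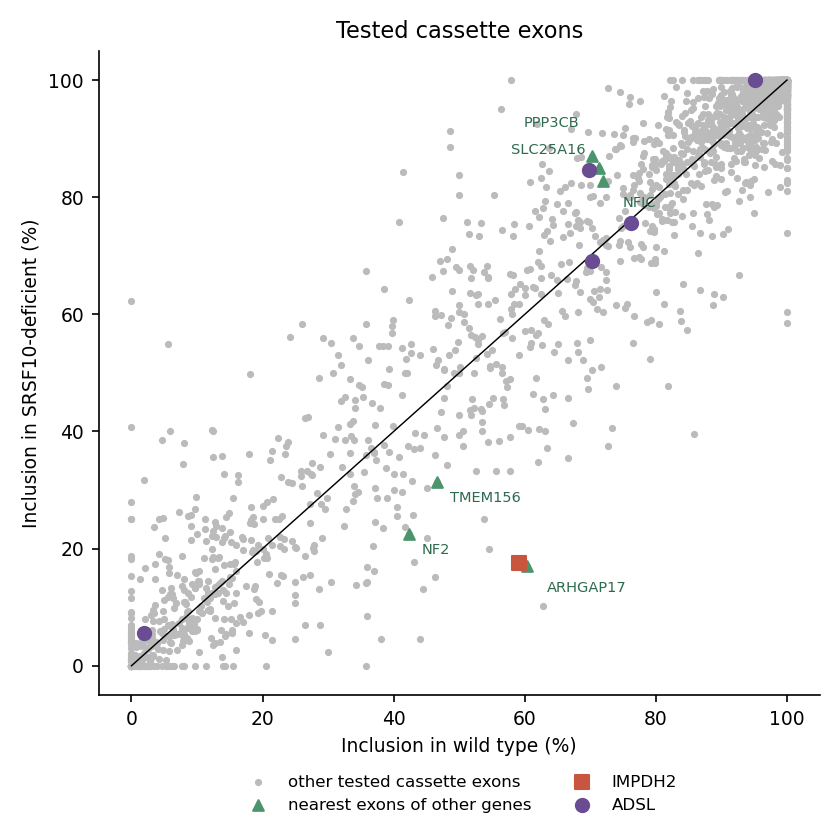
Inclusion in the wild-type library (x axis, percent) against the SRSF10-deficient library (y axis, percent) for the 2175 tested cassette exons, with IMPDH2 as a square, the 5 exons listed under ADSL as large circles, the 3 nearest exons of other genes to each as triangles and equal levels as a line. IMPDH2 lies far below the line beside ARHGAP17, and of the ADSL exons the one at 69.9% and 84.6% lies furthest from the line.

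Other genes of nucleotide metabolism were read from 4 gene lists with IMPDH2 and ADSL left out. The lists held 113 names, older symbols included, of which 29 had rows. Of 39 tested events in 23 genes, 1 (2.56%) was called, against 4.7% of all tested events, and the median size of the difference was 1.46 points against 2.36 points over all tested events. Calls this few do not set the lists apart from the whole table. The medians are not a like comparison either, as the lists were not matched to the table for level or depth. Rows of PRPS1, CTPS and RRM2, for example, lay near an end of the scale. Events are counted as listed, so rows that share reads, such as those of PRPS1, each count. In the de novo purine list, PPAT, PFAS, PAICS and ATIC had 0 rows each and so were not observed. Of the 8 tested events of that list, in 4 genes, 0 were called. GART, a trifunctional enzyme of the early steps, came nearest, with a 119 nt cassette exon (chromosome 1, 104769317 to 104769435) at 30 of 234 reads, or 12.8% (8.82 to 17.8), and 10 of 253 reads, or 3.95% (1.91 to 7.15). Its Fisher's exact adjusted p was 0.00998, but its difference of -8.87 points was under the 10 points required.

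ADSS, adenylosuccinate synthase, makes the substrate that ADSL cleaves on the way to adenosine monophosphate. A 51 nt exon of it (chromosome 3, 34119618 to 34119668) had levels of 97.3% and 98.6% over 477 and 498 reads. PRPS2, which makes the ribose donor of the pathway, had a 21 nt exon at 70% (45.7 to 88.1) and 82.1% (63.1 to 93.9) over 20 and 28 reads, with intervals too wide to show a difference of that size. The rows of PRPS1, a sister enzyme, held the same 7 of 1049 and 7 of 1671 reads for a 5' site and for a 3' site, and so are 1 observation. IMPDH1, the other IMP dehydrogenase, and GMPS, the enzyme that follows it on the way to guanosine monophosphate, had 0 rows each.

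The purine salvage and conversion list had 0 of 9 tested events called, and its widest difference was 7.88 points. HPRT1, which salvages guanine and hypoxanthine, was the deepest of them with an 18 nt exon at 97.2% of 681 reads and 94.4% of 715 reads. The one-carbon list, genes that supply carbon units to purine and thymidylate synthesis, had 0 of 9 called. The widest tested difference there was in MTR, methionine synthase, with 67% (56.9 to 76.1) and 82.5% (75.5 to 88.1) at a 68 nt exon (Fisher's exact test, adjusted p = 0.0894). The pyrimidine and deoxynucleotide list had 1 of 13 called (7.69%). This was a mutually exclusive row of CAD, the enzyme that starts pyrimidine synthesis, with 0 of 31 reads in wild-type cells (a limit of 9.68%) and 11 of 41, or 26.8% (14.2 to 42.9), in deficient cells (Fisher's exact test, adjusted p = 0.0320). For mutually exclusive rows with large enough expected counts, the median chi-square was 13.7 times that under counting error alone. With chi-squares divided by that factor CAD was not called.

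**Figure D5:**
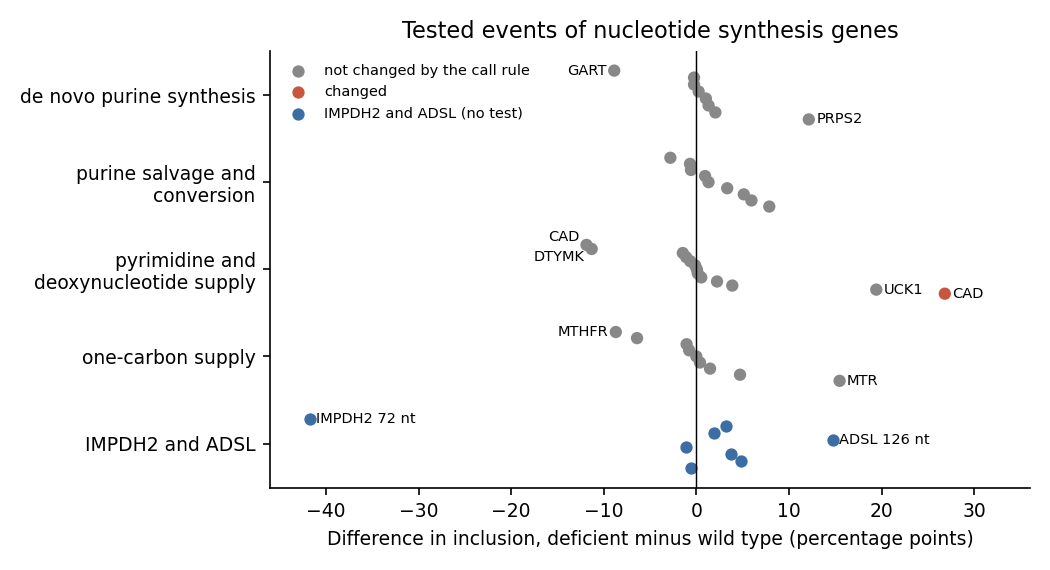
Difference in inclusion in percentage points, deficient minus wild type (x axis), of each tested event of 4 nucleotide metabolism gene lists and of IMPDH2 and ADSL (y axis, with points spread vertically for legibility), with 1 library per genotype. In the lists, 1 of 39 events (CAD, red) was called changed. The IMPDH2 exon stands at -41.7 points, and nothing is read from its place beside the lists, since IMPDH2 was chosen by its difference.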

How the data were processed

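Paired-end libraries were made from poly(A) RNA, per the labels' protocols. The submitters' processing notes name TopHat2 2.0.6, Cufflinks and the galGal4 build. Not given in the sources used here are the program that counted events and the test behind the authors' adjusted p-value in the deposited table. The other deposited values are raw read counts for exclusion and inclusion, per the file headers.

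Of 10652 rows, 276 with 3 or more numbers per library and 63 repeats were left out. IMPDH2 and ADSL matched current symbols in the GRCg7b gene table. Of 251 mutually exclusive rows, 158 name chromosomes without a prefix, the IMPDH2 row among them, and were read as the same chromosomes. Exon length is end minus start plus 1. Levels, intervals, Fisher's exact tests and adjusted p-values were computed with Python 3.11.15, SciPy 1.17.1, pandas 2.3.3 and NumPy 2.4.6. Figures were made with matplotlib 3.10.9. Calling was tried on simulated counts with counting error only, so that trial says nothing of false calls under the wider spread between these libraries. With 1 library per genotype, tests compare 2 libraries, not 2 genotypes. Limits for 0 reads use 3 counts over the reads of the event, as an approximate upper limit. Those given lie below the upper ends of the Clopper-Pearson intervals (5.66% against 6.72% for the 6 nt event of ADSL).

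Members and gene lists were chosen with earlier results of these data known. Named genes are both members, called list events, cassette exons of the de novo list and the 3 nearest exons per member. Other list events (HPRT1, MTR, the PRPS1 pair) were named after their values were seen. Alternatives changed the minimum reads, difference, adjusted p, weight of inclusion reads, test, spread and repeated positions. Sequences were not analysed here.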

Additional observations from a re-analysis of the deposited data

How the results depend on the processing

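With inclusion reads of cassette exons halved, the difference of the 72 nt exon of IMPDH2 was -32.5 points and that of the 126 nt exon of ADSL 19.7 points. Among the other ADSL cassette exons, the 22 nt exon went from 4.85 to 9.26 points and the 70 nt exon from 3.77 to 1.96 points. The 159 nt exon stood at -1.29 points and the 68 nt exon at -0.754 points. With 1 read added to each count, the 68 nt exon of ADSL changed sign, from -0.581 to 1.09 points, and no other of the 9 events did. The 63 nt exon of IMPDH2 then stood at -83.7 points. The 286 changed events became 156 with at least 20 points and 142 with the authors' adjusted p. They became 55 with chi-squares divided by the median excess over counting noise of the event type. That factor, taken over rows with large enough expected counts, was 3.97 for cassette exons. In the nucleotide lists the 1 call became 2 with at least 10 reads (SLC19A1, a folate carrier, added) or with no minimum difference (GART added). It became 0 with at least 50 reads, an adjusted p of 0.01, the authors' adjusted p or divided chi-squares. Depth limits the 63 nt exon of IMPDH2, with 9 reads in the deficient library, and the 68 nt exon of ADSL, with 21 in the wild type. No paired analysis was possible because there was 1 library per genotype.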
